A study of Mus musculus with 14 samples.

Results

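The nephron progenitors of the embryonic mouse kidney at day E13.5 were compared with and without the MAP kinase kinases MEK1 and MEK2. The comparison used 6 of the 14 RNA-seq libraries of the series, all those from metanephric mesenchyme (MM), taken by their genotype labels as 3 MM controls against 3 MM dko libraries. The other 8 libraries came from the ureteric bud (UB) at E12.5, with Cre from the HoxB7Cre-GFP transgene. By the labels, MM controls carried the genotype Six2-TGC;Mek1fl/+;Mek2+/+ and MM dko embryos Six2-TGC;Mek1fl/fl;Mek2-/-, on a mixed background of C57BL6/Rcc and 129/SvEv. Mek1 is the gene Map2k1 and Mek2 is Map2k2.

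All 6 embryos carried the Six2-TGC transgene, which drives a fusion of GFP and Cre recombinase from the regulatory sequence of Six2. Floxed Mek1 was thus removed only where the Six2 transgene was active, whereas Mek2 was absent from every cell of the dko embryos. By these genotypes the controls had 1 floxed Mek1 allele, so that their progenitors kept a single intact copy of Mek1 and both copies of Mek2. The study's methods also list Mek2+/- embryos among the MM controls, and the labels were followed here. Each library was made from GFP-positive cells sorted from both kidneys of a single embryo, and the sort selected on a reporter driven from Six2 in both groups. The labels name the cells NP (nephron progenitor) in one field and MM in another.

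MEK1 and MEK2 are the kinases that activate the ERK kinases, the last step of a cascade that runs from receptor tyrosine kinases through RAS and RAF. In the developing kidney, nephron progenitors surround the tips of the ureteric bud, receive FGF signals and express Six2, and they either renew or form the epithelium of the nephron. ERK activity is known to induce its own inhibitors, such as the Sprouty and DUSP families, and transcription factors of the ETV family. Replication-dependent histone genes, most of them in clusters, are transcribed chiefly in S phase to package new DNA, and their mRNAs end in a stem-loop in place of a poly(A) tail.

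The MM control libraries held 5986110, 5880919 and 6442484 counts in genes and the MM dko libraries 3438297, 1443582 and 3066481. At least 10 counts were reached by 13186, 13199 and 13089 genes in the controls and by 10704, 9046 and 10609 in the dko libraries. Values per library are given in the order of replicates 1, 2 and 3, as counts normalised for library size and composition (TMM), and fold changes are dko over control on the log2 scale with their standard error. Genes were tested with edgeR's quasi-likelihood test, and a gene "rose" or "fell" where its Benjamini-Hochberg adjusted p was under 0.05. In these bulk libraries, fewer cells of a type and less RNA per cell cannot be told apart.

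The fold change depended on the base composition of the gene. In the decile of genes with the lowest GC content (25.6 to 40.1% in the longest transcript), 983 genes rose and 7 fell, and in the decile with the highest (57.2 to 73.7%), 17 rose and 947 fell. The median gene of the first decile was 1.64, 1.31 and 1.57 log2 units above the control mean in the dko libraries, and that of the last decile stood at -2.32, -1.50 and -2.0. No control library departed from its group by more than 0.16 in either decile. All 3 dko libraries carried this slope, so the slope and the genotype cannot be told apart.

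**Figure D1:**
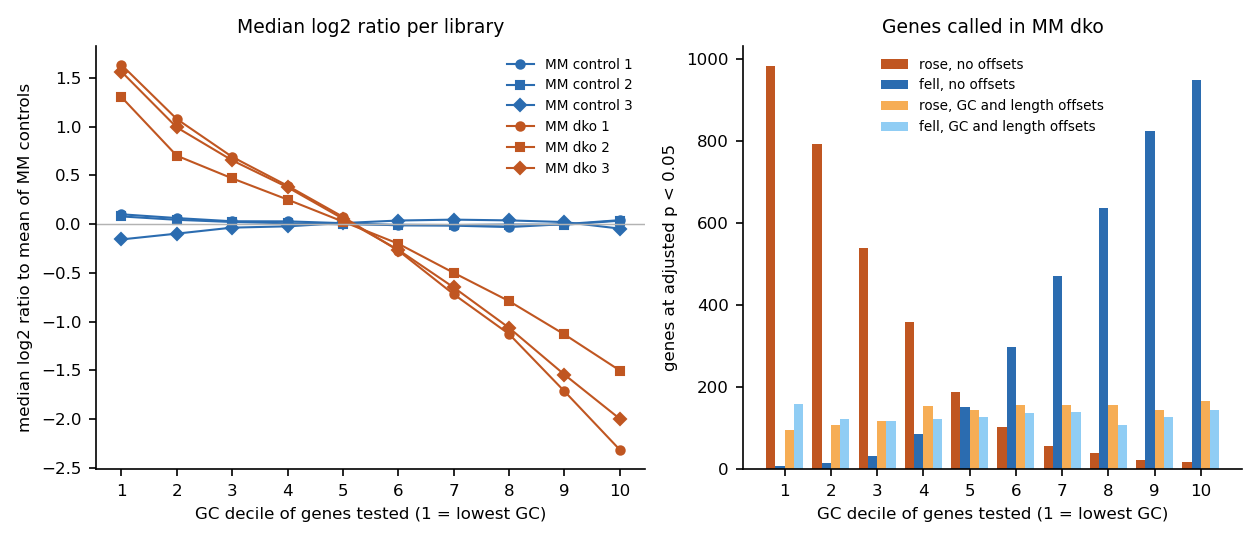
Left, the median log2 ratio to the mean of the MM controls (y axis) in each decile of GC content (x axis, 1 is the lowest), with a line per library; right, the number of genes that rose or fell in each decile, without and with the offsets for GC content and length. The dko libraries run from above 1.3 in the first decile to -1.5 or lower in the last while the controls stay within 0.16 of 0, and the 983 rises and 947 falls at the ends become 95 and 143 with the offsets.

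A second fit therefore took out the smooth trend of each library with GC content and gene length before the test, and its values are printed as "with the offsets". These offsets also remove any real difference that follows GC content, so each fit is one reading of the same counts. Of 12431 genes tested, 3105 rose (25.0%) and 3465 fell (27.9%) without the offsets, and 1399 rose (11.3%) and 1299 fell (10.4%) with them. In the same direction in both fits, 853 genes rose (6.86%) and 902 fell (7.26%), while 109 rose without the offsets and fell with them and 62 did the reverse. The median gene stood at -0.05 without and 0.01 with the offsets. Scaled by library size alone, the median gene moved to -0.44 and the calls to 1871 rises and 4701 falls. With a fold change of at least 2 as a further condition, 1960 genes were higher (15.8%) and 2867 lower (23.1%) without the offsets, against 810 (6.52%) and 725 (5.83%) with them. The counts of rises and falls in the gene lists below are to be read against the shares of all genes. These are 25.0% and 27.9% without the offsets and 11.3% and 10.4% with them.

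Mek2 was strongly reduced in every dko library. Map2k2 (chromosome 10) measured 233, 279 and 211 in the control and 11.4, 24.7 and 17.0 in the dko libraries, so that the groups were far apart. This is a log2 fold change of -3.86 ± 0.34, adjusted p = 1.51e-06, and -1.79 ± 0.30, adjusted p = 0.000824 with the offsets. The raw counts of Map2k2 in the dko libraries were 7, 7 and 10. Non-overlapping groups with lower dko values were found for 32.8% of the tested genes and with higher dko values for 27.6% (20.7% and 19.2% with the offsets).

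Map2k1 (chromosome 9) measured 76.2, 83.9 and 99.8 in the control and 165, 145 and 112 in the dko libraries, with every dko library above every control. It rose (log2 fold change of 0.70 ± 0.28, adjusted p = 0.0466, and 1.38 ± 0.27, adjusted p = 0.00221 with the offsets). The counts run over the whole gene, so reads from an allele that had lost its floxed exon were counted with the rest and the deletion itself cannot be seen here. The call of Map2k1 without the offsets was lost in 10 of 13 other settings, over which its fold change lay between 0.31 and 0.85.

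**Figure D2:**
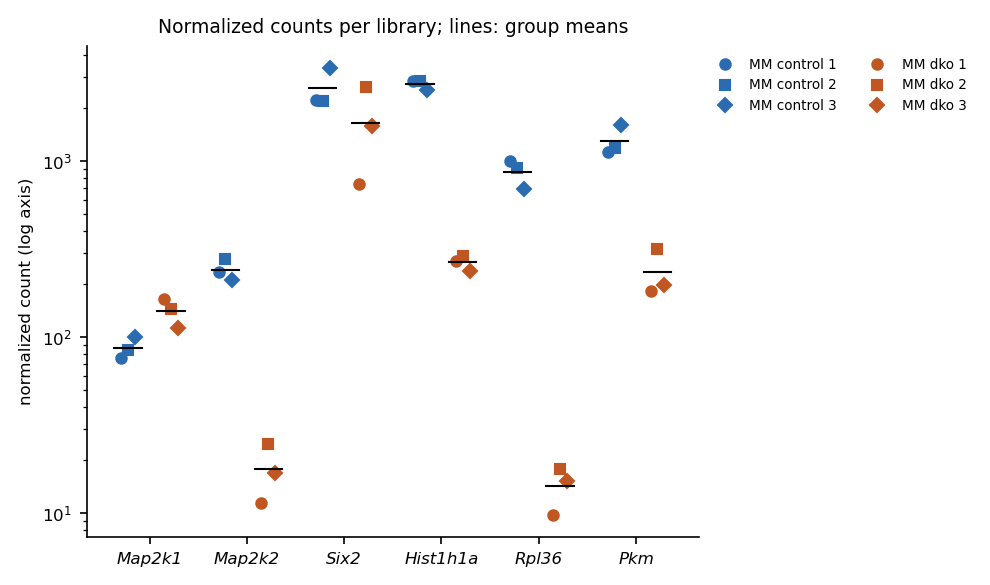
Normalised count in each of the 6 libraries (points, log y axis) with the group means (lines) for Map2k1, Map2k2, Six2, Hist1h1a, Rpl36 and Pkm. The groups do not overlap for any of these genes but Six2, where dko 2 lies among the controls.

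The genes of the cascade did not move together. Of 18 tested, Map2k1 and Map2k2 included, 11 rose and 6 fell (median 0.51), and with the offsets 5 rose and 2 fell (median -0.03). The 11 rises became 7 without control 2 or with no filter on low counts, and 4 under scaling by library size alone. Braf, a RAF kinase that phosphorylates MEK, measured 365 ± 64.7 in control and 1163 ± 222 in dko (SD, n = 3), a log2 fold change of 1.68 ± 0.19, adjusted p = 1.35e-05, and rose with the offsets too (0.89). The RAF kinase Araf (1.02, 0.78 with the offsets), the adaptor Grb2 (0.53, 1.28) and the RAS GTPase-activating protein Rasa1 (1.46, 0.61) also rose in both fits. Mapk3, which encodes ERK1, fell without the offsets (log2 fold change of -2.75 ± 0.33, adjusted p = 1.92e-05) and did not pass with them (-0.94 ± 0.33, adjusted p = 0.0566).

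Among 11 feedback inhibitors of the pathway, 3 rose and 2 fell (median -0.30), and 4 rose with the offsets (median 0.49). Spry1, an inhibitor of receptor tyrosine kinase signalling, measured 482, 494 and 385 in the control and 886, 940.0 and 871 in the dko libraries. All dko values of Spry1 lay above all control values (log2 fold change of 0.98 ± 0.16, adjusted p = 0.000228, and 2.51 ± 0.17, adjusted p = 2.32e-07 with the offsets). Spry2 rose in both fits as well (1.00 and 0.96). Dusp6, a phosphatase of ERK, measured 455, 461 and 454 in the control and 420.1, 403 and 506 in the dko libraries, with the groups overlapping and no call (log2 fold change of -0.04 ± 0.17, adjusted p = 0.86, and 0.22 ± 0.16, adjusted p = 0.349 with the offsets). Dusp5 and Dusp9, phosphatases of the same family, fell without the offsets (-0.90 and -1.21) and had positive values that did not pass with them (0.67 and 0.49). Without the offsets, both calls were lost when control 1, control 2, dko 1 or dko 3 was left out (adjusted p up to 0.0803 for Dusp5 and 0.135 for Dusp9).

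Etv4 and Etv5 were lower in the dko libraries. Etv5 measured 333, 400.4 and 348 in the control and 115, 198 and 109 in the dko libraries, without overlap, and fell in both fits (log2 fold change of -1.40 ± 0.25, adjusted p = 0.000362, and -0.77 ± 0.22, adjusted p = 0.0203 with the offsets). The call of Etv5 with the offsets was kept in 2 of 6 fits that left out 1 library (adjusted p up to 0.112 in the others). Etv4 measured 183, 184 and 154 in the control and 17.8, 63.6 and 20.4 in the dko libraries, again without overlap, and fell without the offsets (log2 fold change of -2.52 ± 0.41, adjusted p = 0.000198) but did not pass with them (-0.72 ± 0.34, adjusted p = 0.15). Etv1 was the exception of the family, at 1.15 without the offsets, where it rose, and -0.03 with them.

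Of the 21 tested transcription factors and early genes that ERK can induce, 4 rose and 7 fell without the offsets (median -0.25), and 10 rose with them (median 0.70). The 4 rises became 2 without control 1, control 3 or dko 3, and 1 under scaling by library size alone. Fos (0.71, 1.57 with the offsets), Myc (0.55, 1.60) and Phlda1 (1.22, 3.22) rose in both fits. Phlda1 measured 347, 287 and 253 in the control and 788, 452 and 803 in the dko libraries, and its groups did not overlap. Ier2 fell by 1.68 on the log2 scale without the offsets but stood at 0.64, without a call, with them. Ccnd1, the cyclin that drives entry into the cell cycle, measured 589.8, 578 and 857 in the control and 350.3, 304 and 457 in the dko libraries and fell without the offsets only (log2 fold change of -0.86 ± 0.21, adjusted p = 0.00366, then -0.33 ± 0.20, adjusted p = 0.251).

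Receptors and ligands of the niche went in both directions, as did all genes. Of 20 tested, 4 rose and 7 fell (median -0.28), against 25.0% and 27.9% of all genes. With the offsets 5 rose and 3 fell (median 0.09), against 11.3% and 10.4%. Gfra1, the co-receptor of GDNF, fell in both fits (-1.39 and -1.11), as did the receptors Ddr1 (-2.80 and -0.94) and Igf2r (-1.05 and -0.56). The call of Ddr1 with the offsets was lost in all 6 fits that left out 1 library (adjusted p 0.0639 to 0.0986). The growth factor Igf2 measured 7576, 8138 and 8286 in the control and 16577, 14564 and 15570.4 in the dko libraries, all dko libraries above all controls, and rose in both fits (log2 fold change of 0.96 ± 0.15, adjusted p = 0.000152, and 2.27 ± 0.16, adjusted p = 3.04e-07 with the offsets). Fgf20, an FGF made by nephron progenitors, also rose in both (1.38 and 1.36), whereas Fgf10 rose without the offsets only (1.09 and 0.20). Gdnf, which signals from the mesenchyme to the ureteric bud, measured 382, 438 and 363 in the control and 208, 392 and 253 in the dko libraries, with overlapping groups and no call in either fit (-0.50 and -0.03). Gdnf passed as a fall when dko 2 was left out, when genes of low counts were kept and under scaling by library size alone (log2 fold change down to -0.88).

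The genes that define nephron progenitors remained expressed in the dko libraries. Six2, the transcription factor that keeps progenitors undifferentiated, measured 2222, 2192 and 3389 in the control and 738, 2643 and 1580.3 in the dko libraries, so that dko 2 lay within the control range and dko 1 and dko 3 below it. The difference did not pass (log2 fold change of -0.66 ± 0.44, adjusted p = 0.243), and with the offsets Six2 rose (1.39 ± 0.35, adjusted p = 0.0358). This rise passed in only 2 of 6 fits with the offsets that left out 1 library, those without control 3 or dko 1, and the adjusted p was 0.0704 to 0.133 in the others. The GC content of Six2 is 61.2%. Eya1, a partner of Six2, measured 1983, 2049 and 1906 in the control and 2898, 3311 and 3945 in the dko libraries and rose in both fits (log2 fold change of 0.77 ± 0.16, adjusted p = 0.000987, and 0.53 ± 0.13, adjusted p = 0.0103 with the offsets). Sall1 measured 2386, 2432 and 2353 in the control and 1591, 1470.2 and 1356 in the dko libraries and fell without the offsets only (log2 fold change of -0.70 ± 0.14, adjusted p = 0.00119, then -0.11 ± 0.13, adjusted p = 0.588).

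Pax2, Wt1, Osr1 and Cited1, which mark or sustain the progenitor state, changed sign with the offsets. Pax2 measured 749, 722 and 791 in the control and 532, 445 and 460.0 in the dko libraries, and fell without the offsets (log2 fold change of -0.65 ± 0.16, adjusted p = 0.00377) and rose with them (1.51 ± 0.22, adjusted p = 0.000328). Wt1 went from -0.18, not called, to 0.86, a rise. Osr1 and Cited1 fell without the offsets (-1.07 and -1.52) and had values of 0.62 and 0.95 that did not pass with them. Cited1, with few counts, lost its call in 9 of 12 other settings without the offsets (adjusted p up to 0.241). Over the 24 tested regulators of the progenitors, 9 rose and 7 fell (median -0.26), and 10 rose with the offsets (median 0.47). The 7 falls became 3 without control 1, control 2 or dko 3, 4 without dko 1 or with DESeq2, and 12 under scaling by library size alone, where 4 rose. Relative to the median of its own GC decile, the median regulator stood at 0.41.

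**Figure D3:**
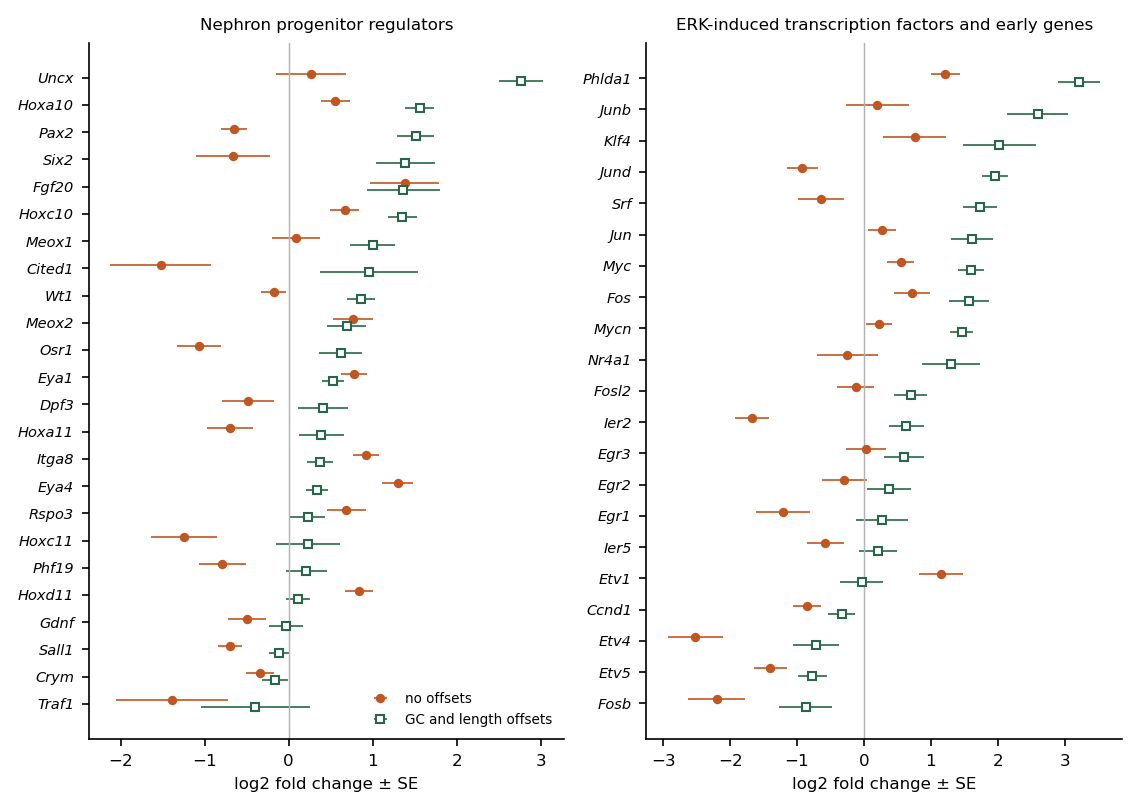
Log2 fold change ± SE (x axis, dko over control) of the tested nephron progenitor regulators (left) and ERK-induced factors and early genes (right), without the offsets (filled) and with the offsets for GC content and length (open). Six2, Pax2, Wt1, Osr1 and Cited1 pass from below 0 to above it, whereas Etv4 and Etv5 stay below 0 and Eya1, Fgf20, Phlda1, Myc and Fos above it in both fits.

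Genes of the first steps of nephron formation gave 3 rises and 6 falls among 18 tested (median 0.06), against 25.0% and 27.9% of all genes. With the offsets they gave 7 rises and 1 fall (median 0.47), against 11.3% and 10.4%. Wnt4, the signal that starts the change from mesenchyme to epithelium, measured 376, 433 and 652 in the control and 152, 141 and 119 in the dko libraries, without overlap, and fell without the offsets (log2 fold change of -1.83 ± 0.24, adjusted p = 4.19e-05) but not with them (-0.49 ± 0.24, adjusted p = 0.157). Cdh6, a cadherin of the early nephron, fell in both fits (-1.38 and -2.22). Sox9 (1.50 and 1.71), the Wnt modulator Sfrp2 (0.70 and 1.75) and the Notch target Hes1 (0.49 and 1.21) rose in both.

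Of 24 Wnt and BMP pathway genes, 10 rose and 6 fell (median 0.22), and 12 rose with the offsets (median 0.53). Bmp4 (1.86 and 2.82), its inhibitory SMAD Smad7 (0.92 and 2.37), and Id2 (1.06 and 0.89) and Id4 (1.56 and 0.84), which BMP signals induce, rose in both fits. Bmp7, a ligand that progenitors make, measured 522, 613 and 601 in the control and 308, 229.7 and 255 in the dko libraries and fell without the offsets only (-1.12, then 0.15). Id1 fell without the offsets (-1.91) and did not pass with them (-0.49).

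Of 31 tested HOX genes, which set position along the body axis, 8 rose and 6 fell (median 0.17). Of all genes, 25.0% rose and 27.9% fell. With the offsets 16 HOX genes rose (median 0.94), against 11.3% of all genes. The 6 falls became 3 without control 1 or dko 3 and 2 without control 2, and library size alone gave 3 rises. Hoxa5 measured 268, 259 and 173 in the control and 749, 579.6 and 655 in the dko libraries, every dko library above every control (log2 fold change of 1.51 ± 0.20, adjusted p = 4.82e-05, and 2.02 ± 0.19, adjusted p = 5.29e-06 with the offsets). Hoxa3 (1.14 and 2.21), Hoxb3 (0.80 and 1.88), Hoxa10 (0.56 and 1.56) and Hoxc10 (0.66 and 1.35) rose in both fits too. Hoxd11, which acts in the kidney with Hoxa11, rose without the offsets only (0.84, then 0.11), and Hoxa11 fell without them only (-0.70, then 0.39).

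Markers of other cell types were near the limit of detection, apart from stromal markers, the 2 neural markers that could be tested and Hbb-y in control 3 and dko 2. The leukocyte markers Ptprc, Itgam and C1qa had at most 9 counts in a library, the globin genes other than Hbb-y at most 6, the ureteric bud marker Ret at most 6, and Wnt9b, Krt7 and Sox10 were at 0 in all 6 libraries, where a count of 0 allows up to 3 counts. The sum of normalised counts over the tested ureteric bud markers ran from 66.5 to 93.2 in the controls and from 66.5 to 91.9 in the dko libraries, and that over the tested endothelial markers from 16.3 to 45.4 and from 13.6 to 60.1. Over all tested genes such sums ran from 3.95e+06 to 4.10e+06 in the controls and from 5.07e+06 to 5.55e+06 in the dko libraries. Cd68 and Hbb-y, the leukocyte and the erythroid marker that could be tested, were not called in either fit. Hbb-y measured 9.52, 8.12 and 51.8 in the control and 0, 187 and 6.79 in the dko libraries. Both neural markers tested rose without the offsets (1.40 and 1.52), and neither was called with them. The 2 rises became 1 without control 1, dko 1 or dko 3. Of these markers, Elavl4 measured 93.9, 65.6 and 134 in the control and 381, 258 and 202 in the dko libraries, without overlap, and rose without the offsets only (log2 fold change of 1.52 ± 0.30, adjusted p = 0.000898, then 0.15 ± 0.31, adjusted p = 0.764).

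Among 13 tested stromal markers, 4 rose and 1 fell, and 4 rose with the offsets, and their summed level was 2346 to 2717 in the controls and 3962 to 4247 in the dko libraries. Without dko 3, or under scaling by library size alone, 2 of them rose. Foxd1, the transcription factor that defines renal stroma, measured 163, 196 and 200.3 in the control and 551, 626 and 411 in the dko libraries, with the groups apart (log2 fold change of 1.50 ± 0.21, adjusted p = 5.36e-05, and 2.56 ± 0.19, adjusted p = 5.58e-07 with the offsets). Tcf21 rose in both fits (1.68 and 2.21). Pdgfrb, a receptor of stromal and mural cells, fell without the offsets (-2.33, then -1.13 without a call), and Col1a1 was not called in either fit (-1.31 and 0.34). The part of other cell types in the results was not tested.

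The 5 classes of replication-dependent histone genes had the lowest medians of all lists described here. Their summed share of all counts was 1.75, 1.85 and 1.03% in the controls and 0.0539, 0.101 and 0.0787% in the dko libraries. Of 59 linker and core histone genes tested, 54 fell (median -4.31), and with the offsets 47 fell and 1, Hist1h2af, rose (median -2.85). The 13 histone genes under 50% GC stood at a median of -3.86 without and -4.06 with the offsets, and the 46 above it at -4.39 and -2.53. GC content here is that of the longest annotated transcript, which has 7425 bases for Hist1h1d and 2506 for Hist1h2be. Whether the reads came from such long transcripts was not tested. Relative to genes of its own GC decile, the median histone gene was at -3.23.

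The upstream sequences of 6 fallen genes, from each of the 5 histone classes, show which promoter elements these 6 share and which they do not. They are the 250 bases before the annotated start in RefSeq (mouse build GRCm38.p6, all on chromosome 13), written 5′ to 3′ on the strand of the gene, and 54 of the 59 tested histone genes had such an entry. Capitals mark the letters CCAAT (bound by NF-Y), TATAAA (the letters of the TATA box) and AAACACA (the H1 box of linker histone genes), or their reverse complements, wherever they lie in the window.
Hist1h1a, chr13:23763418-23763667, plus strand: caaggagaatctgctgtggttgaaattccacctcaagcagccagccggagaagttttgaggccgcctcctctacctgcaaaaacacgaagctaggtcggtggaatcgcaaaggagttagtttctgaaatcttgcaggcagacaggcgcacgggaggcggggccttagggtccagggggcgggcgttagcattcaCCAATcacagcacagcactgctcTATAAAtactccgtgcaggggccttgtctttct
Hist1h1d, chr13:23554782-23555031, plus strand: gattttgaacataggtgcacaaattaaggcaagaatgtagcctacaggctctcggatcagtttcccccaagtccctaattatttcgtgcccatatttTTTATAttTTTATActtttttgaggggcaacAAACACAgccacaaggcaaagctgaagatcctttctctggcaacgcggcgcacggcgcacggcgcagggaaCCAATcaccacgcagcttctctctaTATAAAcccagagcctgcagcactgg
Hist1h2ai, chr13:21716162-21716411, plus strand: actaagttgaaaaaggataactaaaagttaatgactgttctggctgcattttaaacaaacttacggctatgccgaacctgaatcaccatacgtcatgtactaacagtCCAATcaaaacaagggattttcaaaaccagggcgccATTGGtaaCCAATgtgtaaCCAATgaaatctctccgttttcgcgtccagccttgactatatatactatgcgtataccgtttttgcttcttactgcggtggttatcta
Hist1h2bf, chr13:23574208-23574457, minus strand: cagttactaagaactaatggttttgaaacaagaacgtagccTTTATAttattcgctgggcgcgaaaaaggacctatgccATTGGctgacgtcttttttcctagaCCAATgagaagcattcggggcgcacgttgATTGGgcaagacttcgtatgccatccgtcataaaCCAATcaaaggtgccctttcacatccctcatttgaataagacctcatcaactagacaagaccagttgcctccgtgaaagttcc
Hist1h3c, chr13:23745522-23745771, minus strand: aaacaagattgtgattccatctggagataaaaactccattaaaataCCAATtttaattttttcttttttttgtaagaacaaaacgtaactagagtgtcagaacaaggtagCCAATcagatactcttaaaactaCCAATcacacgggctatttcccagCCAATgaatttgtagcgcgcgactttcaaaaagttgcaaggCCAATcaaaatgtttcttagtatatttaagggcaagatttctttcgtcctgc
Hist1h4b, chr13:23756687-23756936, plus strand: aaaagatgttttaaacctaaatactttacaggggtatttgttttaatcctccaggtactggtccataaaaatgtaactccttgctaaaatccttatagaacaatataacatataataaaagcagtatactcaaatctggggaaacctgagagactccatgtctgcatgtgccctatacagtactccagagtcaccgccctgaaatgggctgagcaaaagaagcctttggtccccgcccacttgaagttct

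CCAAT was found on either strand in the upstream sequence of 5 of 5 linker, 14 of 14 H2A, 14 of 14 H2B, 8 of 9 H3 and 3 of 12 H4 genes, against 37.5% of 27025 mouse genes. TATAAA was found in 4, 6, 7, 4 and 6 genes of these classes, against 14.3% of all genes, and the octamer ATTTGCAT in 6 H2A and 6 H2B genes, against 1.81%. The H1 box AAACACA was found in 4 of 5 linker genes, including Hist1h1d but not Hist1h1a, against 7.20%. Hist1h4b has none of these letters in the window printed above, and it fell too (-5.70). H2A and H2B genes often stand head to head and share the sequence between them, so their counts are not independent. The counts of matches cover fallen and unfallen genes alike. CCAAT also stood before the H2A genes Hist1h2af, Hist1h2ao and Hist3h2a, which did not fall without the offsets, and Hist3h2a had the octamer too. The H3 gene Hist2h3c2, not called either, had none of these letters. A match is a run of letters and not evidence of binding.

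By class, 5 of 5 tested linker genes, 11 of 14 H2A, 15 of 16 H2B, 10 of 11 H3 and 13 of 13 H4 genes fell, with medians of -3.51, -4.17, -3.71, -5.66 and -5.11. With the offsets the falls numbered 5, 7, 15, 8 and 12, with medians of -2.04, -2.48, -2.15, -3.29 and -3.67. Control 3 was lower than controls 1 and 2 in these classes, most of all for H2A and H3. Relative to the control mean, the median H2A gene stood at 0.47, 0.60 and -1.09 in the controls and -4.94, -3.52 and -4.61 in the dko libraries. The median H3 gene stood at 0.63, 0.64 and -1.37 and at -5.78, -4.85 and -5.47. Hist1h1a, a linker histone that compacts the fibre between nucleosomes, measured 2867, 2836 and 2542 in the control and 271, 289.8 and 236 in the dko libraries, with tight groups that were far apart. It fell in both fits (log2 fold change of -3.38 ± 0.17, adjusted p = 1.17e-08, and -1.98 ± 0.14, adjusted p = 2.6e-07 with the offsets). Hist1h1d, the linker histone of lowest GC content, measured 2012, 2397 and 1266 in the control and 115, 152 and 163 in the dko libraries and fell more with the offsets than without (-3.73, then -4.94). Its GC content and length are those of a transcript of 7425 bases, against 741 for Hist1h1a, so its offset is uncertain.

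Hist1h4b, an H4 gene, measured 704, 697 and 639 in the control and 9.73, 21.2 and 11.9 in the dko libraries, a log2 fold change of -5.70 ± 0.28, adjusted p = 1.17e-08 (-3.67 with the offsets). Hist1h3c, an H3 gene, measured 3623, 3476 and 2129 in the control and 43.8, 102 and 57.7 in the dko libraries, a log2 fold change of -5.60 ± 0.31, adjusted p = 6.13e-08 (-3.99 with the offsets). Neither gene overlapped between the groups. Hist1h2ai (-6.97 and -3.87), Hist1h2be (-3.87 and -4.06) and Hist1h2bf (-5.21 and -3.07) stand for the H2A and H2B genes. Hist2h3b had 428 ± 278 normalised counts (SD, n = 3) in the controls and none in any dko library, at least 212-fold lower when set against 3 counts over the dko group. It passed without the offsets (adjusted p = 0.0217) and not with them (adjusted p = 0.0745). Many histone genes have near-identical coding sequences, so reads may have been split among them and single members are uncertain.

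**Figure D4:**
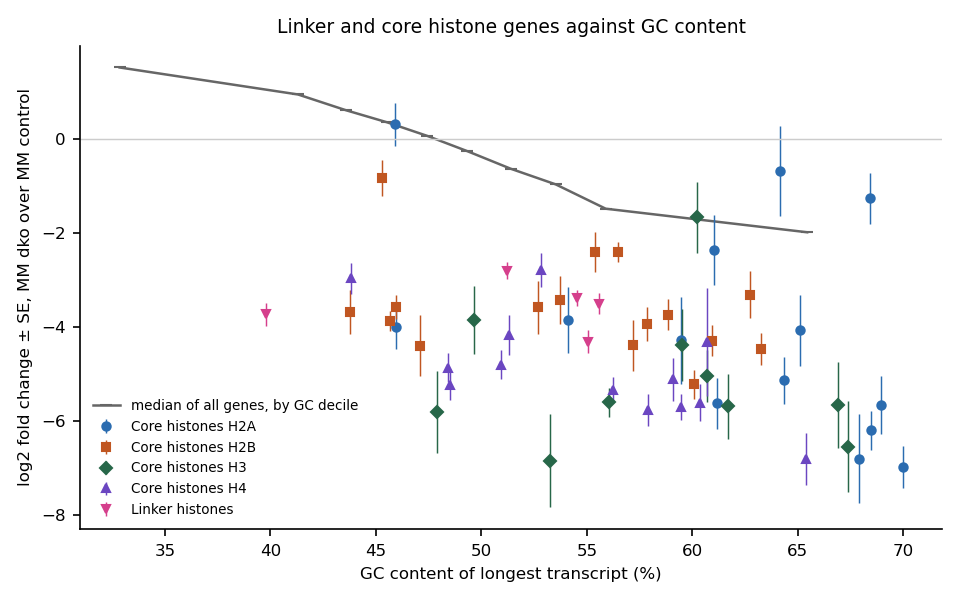
Log2 fold change ± SE (y axis, without the offsets) of each tested linker and core histone gene, by class, against its GC content (x axis, percent of the longest transcript), with a line for the median of all genes in each GC decile; Hist2h3b is left out because no dko library had a count. The histone genes lie below the line at low and at high GC content, with few exceptions.

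The genes listed as replication-independent variants had a higher median than the 5 classes above, although H2afx fell by a similar amount without the offsets. Of 11 tested, 1 rose and 5 fell (median -0.38), and with the offsets 1 rose and 2 fell. H3f3a, which encodes the variant H3.3, rose without the offsets (0.77, then 0.20). H2afx (-3.87 and -1.38) and H2afz (-1.14 and -0.76) fell in both fits. Among 17 genes that process histone mRNA or chaperone histones, 4 rose and 5 fell (median -0.17), and with the offsets 1 rose and 7 fell. Chaf1a (-2.51 and -1.73) and Chaf1b (-1.75 and -1.45), which place new histones on replicated DNA, fell in both. Npat, the coactivator of histone transcription, rose without the offsets only (1.27, then 0.15), and Slbp, which binds the stem-loop, fell with them only (-0.17, then -0.57).

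Genes of DNA replication were lower on balance, with a median closer to 0 than that of the histones. Of 50 tested, 3 rose and 30 fell (median -0.64), and with the offsets 1 rose and 19 fell (median -0.50). Mcm2, a subunit of the replicative helicase, measured 748, 794 and 823 in the control and 211, 198 and 188 in the dko libraries, without overlap (log2 fold change of -1.98 ± 0.17, adjusted p = 1.36e-06, and -1.32 ± 0.16, adjusted p = 5.28e-05 with the offsets). The helicase subunits Mcm5 (-1.74 and -1.04) and Mcm6 (-0.99 and -1.09), the primase partner Pola2 (-1.50 and -1.55) and the ribonucleotide reductase subunit Rrm1 (-0.48 and -1.12) fell in both fits. Pcna, the sliding clamp, was not called in either (0.34 and 0.25), nor was Rrm2 (-0.13 and -0.22).

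Of 45 genes of G2 and mitosis, 9 rose and 20 fell (median -0.30), and with the offsets 1 rose and 21 fell (median -0.46). The 9 rises became 5 without control 1 or control 3, 4 without dko 1 or dko 3, and 2 under scaling by library size alone. Cdk1, the kinase that drives mitosis, fell in both fits (-0.74 and -0.76), and so did Aurka (-1.82 and -1.02), Birc5 (-1.24 and -1.27) and Cdca8 (-1.61 and -1.56). Mki67, the proliferation antigen, fell with the offsets only (-0.21, then -0.45). The inhibitors of cyclin-dependent kinases Cdkn1b (1.64 and 0.98) and Cdkn1c (0.59 and 2.64) rose in both fits. Cdkn1b measured 117, 159 and 124 in the control and 449, 481 and 323 in the dko libraries, all dko libraries above all controls. Ccnd3 (-2.22 and -0.79) and Cdk4 (-1.67 and -0.60), which pair to promote G1, fell in both. The call of Ccnd3 with the offsets was lost in all 6 fits that left out 1 library (adjusted p 0.0505 to 0.102).

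Of 17 genes of p53 and its targets, 6 rose and 5 fell, against 25.0% and 27.9% of all genes. With the offsets 3 rose, against 11.3%. Without the offsets, the 6 rises became 3 without control 1 and the 5 falls 2 without dko 3. Gadd45a (0.87 and 1.46) and the cell death gene Bcl2l11 (0.64 and 0.64) rose in both fits. Cdkn1a, the best known p53 target, was not called in either (-0.46 and 0.77).

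Genes of cytosolic ribosomal proteins were the next largest group of falls. Their share of all counts was 3.31, 3.30 and 3.08% in the controls and 0.679, 0.703 and 0.653% in the dko libraries. Of 49 large-subunit genes tested, 41 fell and 1 rose (median -2.17), and of 34 small-subunit genes, 31 fell and 2 rose (median -1.97). With the offsets, 39 and 24 fell and 1 and 2 rose (medians -1.32 and -1.41). The genes were gathered by name, which takes in paralogs and Rps19bp1, which encodes a partner of a ribosomal protein and not a subunit.

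Rpl36 measured 1007, 914 and 695 in the control and 9.73, 17.7 and 15.3 in the dko libraries, a log2 fold change of -6.00 ± 0.28, adjusted p = 1.17e-08 (-3.80 ± 0.26, adjusted p = 2.37e-07 with the offsets). Rps19, which is needed to mature the small subunit, measured 1697, 1379 and 1340.4 in the control and 118, 145 and 127 in the dko libraries, a log2 fold change of -3.51 ± 0.19, adjusted p = 2.24e-08 (-3.13 ± 0.17, adjusted p = 3.17e-08 with the offsets). In both genes the groups were far apart. Rpl8 (-3.93 and -1.97), Rpsa (-3.64 and -2.99) and Rps12 (-3.39 and -3.53) fell in both fits, and Rpl22 (-0.27 and 0.13) and Rpl39 (-0.13 and 0.28) were called in neither. The rises were Rpl36al (2.01 and 2.68) and Rps27rt (1.65 and 1.57) in both fits, Rps27l without the offsets (0.70) and Rps29 with them (1.16). Ribosomal protein genes have many processed pseudogenes, and Rpl36al and Rps27rt are close copies of other genes, so reads may be split among copies. The call of Rpl36al without the offsets was lost when control 2, dko 2 or dko 3 was left out (adjusted p up to 0.0858).

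The genes that support ribosomes also fell on balance. Of 33 translation initiation factors, 7 rose and 17 fell (median -0.81), and with the offsets 2 rose and 21 fell (median -0.68). The 7 rises became 3 without control 1, control 3 or dko 1 and 2 without dko 3, and none under scaling by library size alone. Eif4g1, the scaffold of the cap-binding complex, measured 2559.8, 2666 and 2689.8 in the control and 787, 816 and 827 in the dko libraries, without overlap (log2 fold change of -1.70 ± 0.15, adjusted p = 1.19e-06, and -0.68 ± 0.13, adjusted p = 0.00189 with the offsets). Eif4a1 (-1.78 and -1.95) and the eIF3 subunits Eif3d (-2.26 and -1.59) and Eif3f (-1.69 and -1.26) fell in both fits, while Eif4g3 rose in both (0.50 and 1.09). Of 28 nucleolar genes of ribosome assembly, 2 rose and 18 fell (median -1.10), and with the offsets 2 rose and 12 fell (median -0.55). Fbl (-1.57 and -0.74), which methylates rRNA, and Polr1a (-1.24 and -0.78), the large subunit of RNA polymerase I, fell in both.

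Most enzymes of glycolysis were lower in the dko libraries, by an amount that shrank with the offsets. Of 19 genes tested, 15 fell and 1 rose (median -1.45), and with the offsets 7 fell and 1 rose (median -0.46). Pkm, the pyruvate kinase, measured 1131, 1186 and 1602 in the control and 183, 318 and 199 in the dko libraries, with the groups apart (log2 fold change of -2.52 ± 0.22, adjusted p = 1.88e-06, and -0.84 ± 0.17, adjusted p = 0.00323 with the offsets). Gapdh (-2.79 and -1.98), Pgam1 (-2.82 and -1.76), Aldoa (-2.45 and -0.78) and Gpi1 (-1.96 and -1.22) also fell in both fits. Ldha fell without the offsets only (-0.92, then -0.11), and the glucose transporter Slc2a1 rose with them only (-0.31, then 0.74). Gapdh has many pseudogenes, so its counts are uncertain.

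Nuclear genes of the respiratory chain were lower on balance and mitochondrial ones higher. Of 36 nuclear complex I genes, 26 fell and 2 rose (median -1.52), and with the offsets 12 fell and 3 rose (median -0.67). Ndufv1 (-2.84 and -1.17) of complex I, Sdhb (-1.99 and -0.77) of complex II, Uqcrc1 (-2.63 and -1.64) of complex III and Cox4i1 (-2.57 and -0.67) of complex IV fell in both fits. With the offsets, the call of Cox4i1 was kept in 1 and that of Sdhb in 2 of 6 fits that left out 1 library. Of 9 nuclear complex III genes 6 fell, of 11 complex IV genes 6 fell and 2 rose, and of 15 ATP synthase genes 11 fell and 1 rose. With the offsets 5 fell and 1 rose, 3 fell and 2 rose, and 7 fell and 1 rose. Ndufa4 was listed under both complex I and complex IV, so its rise without the offsets (0.68) is counted in both. Without dko 3, the falls of complex IV became 3. Cox7c, of complex IV, measured 116, 118 and 198 in the control and 983, 915 and 896 in the dko libraries and rose in both fits (2.69 and 1.53).

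Genes of the mitochondrial chromosome took 5.51, 5.99 and 6.02% of counts in the controls and 22.1, 25.7 and 19% in the dko libraries. Of 12 mitochondrial mRNAs tested, 9 rose (median 2.27), and 4 rose with the offsets (median 0.51). Both mitochondrial rRNAs rose in both fits, and they held 1.73, 1.97 and 2.27% of counts in the controls and 15.9, 14.8 and 11% in the dko libraries. The paper's methods include a step that removes ribosomal RNA from the libraries. The part of that step in these shares was not tested. mt-Rnr2, the larger rRNA, rose by 3.22 and by 1.48 with the offsets, and mt-Nd2, a complex I subunit, by 2.45 and 0.88. The median GC content of the 12 mRNAs is 36.5%. Copies of mitochondrial sequence in the nuclear genome could share reads with these genes.

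Of 76 nuclear genes of mitochondrial ribosomal proteins tested, 38 fell and 3 rose (median -0.84), and with the offsets 24 fell and 1 rose (median -0.54). Mrpl12 fell in both fits (-3.48 and -1.86). Of 20 genes of the TCA cycle, 9 fell and 2 rose, and with the offsets 7 fell and 1 rose. Cs, the citrate synthase (-1.01 and -0.89), and Mdh2 (-1.80 and -1.06) fell in both, and Idh3a rose in both (0.63 and 0.61). The call of Idh3a without the offsets was lost when dko 3 was left out, with no filter on low counts and under scaling by library size alone (adjusted p up to 0.299), and with the offsets it was kept in 2 of 6 fits that left out 1 library. Tfam, which packages mitochondrial DNA, was called in neither fit (0.31 and -0.11).

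**Figure D5:**
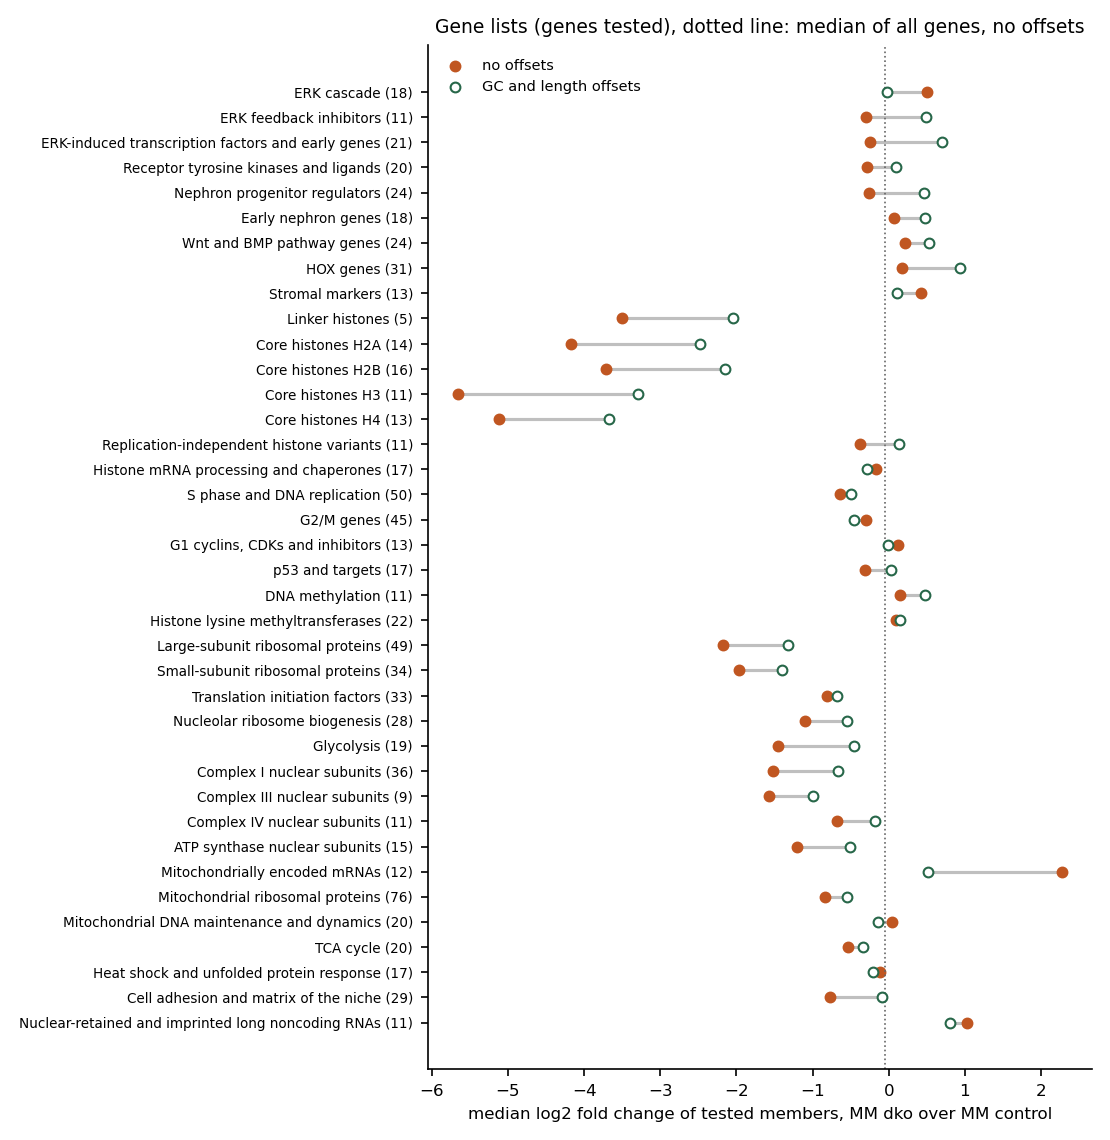
Median log2 fold change (x axis, dko over control) of the tested members of each gene list, without the offsets (filled) and with them (open), with the number of members tested in parentheses and a dotted line at the median of all genes. The 5 histone classes lie lowest in both fits, the ribosomal proteins follow, and the mitochondrially encoded mRNAs lie highest without the offsets.

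Chromatin modifiers went in both directions, as did all genes, of which 25.0% rose and 27.9% fell. Of 22 histone lysine methyltransferase genes, 10 rose and 7 fell, and with the offsets 6 rose and 3 fell. The 10 rises became 6 without control 3 and 5 without dko 3, and library size alone gave 2 rises and 11 falls. Ehmt2, which methylates H3K9, fell in both fits (-2.87 and -0.89). Of 11 genes of DNA methylation, 5 rose and 3 fell (median 0.15), and 4 rose with the offsets (median 0.48). The 5 rises became 2 without control 1 or control 2. Mbd2 (0.82 and 2.46) and Mbd1 (0.63 and 1.00), which bind methylated DNA, and Tet2 (0.88 and 0.49), which oxidises it, rose in both. Dnmt1 and Uhrf1, which copy methylation at replication, fell without the offsets only (-1.20 and -1.08, then -0.21 and -0.08).

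Of 29 genes of adhesion and matrix in the niche, 16 fell and 5 rose (median -0.77), and with the offsets 4 fell and 5 rose (median -0.09). The basement membrane genes Hspg2 (-3.90 and -2.01), Lama1 (-2.30 and -1.36) and Lama5 (-2.99 and -1.22) fell in both fits. Hspg2, which encodes perlecan, measured 904, 842 and 941 in the control and 48.7, 99.0 and 45.8 in the dko libraries, without overlap. Ctnnd1, the p120 catenin (1.73 and 1.71), Vcl, vinculin (1.16 and 1.25), Itgav (1.27 and 0.64) and Cdh11 (0.97 and 0.55) rose in both. Itga8, the integrin through which the mesenchyme meets the bud, rose without the offsets only (0.92, then 0.37).

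Of 17 heat shock and protein folding genes, 4 rose and 5 fell, against 25.0% and 27.9% of all genes. With the offsets 4 rose and 6 fell, against 11.3% and 10.4%. Hspa1b, the inducible HSP70, measured 20.4, 25.0 and 51.8 in the control and 212, 124 and 351 in the dko libraries, without overlap (log2 fold change of 2.84 ± 0.42, adjusted p = 0.000103, and 4.60 ± 0.52, adjusted p = 0.00012 with the offsets). The near-identical Hspa1a passed with the offsets only (0.64, then 2.47), and reads of the pair may be split. Hspa8 (-1.03 and -1.24) and Hsp90ab1 (-1.29 and -0.66), the constitutive chaperones, fell in both fits. Atf4, a factor of the stress response, fell without the offsets only (-1.65, then -0.20).

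Of 11 long noncoding RNAs that stay in the nucleus or are imprinted, 6 rose and 1 fell (median 1.03), and 2 rose with the offsets (median 0.81). Meg3 (1.03 and 1.15) and Kcnq1ot1 (2.00 and 0.82) rose in both fits. H19 measured 11905, 12760.2 and 13857 in the control and 3046, 7453 and 4946 in the dko libraries and fell without the offsets only (log2 fold change of -1.32 ± 0.25, adjusted p = 0.00093, then 0.07 ± 0.17, adjusted p = 0.793). It lies beside Igf2, which rose in both fits as given above.

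The largest changes with the offsets, among genes that passed in the same direction in both fits with groups apart and at least 100 normalised counts in a group, predicted genes, RIKEN clones and pseudogenes left aside, were 8 histone falls and rises of diverse kinds. Of the falls, Hist1h3e (-6.84 and -5.66), Hist1h3f (-5.81 and -5.51), Hist1h1d (-3.73 and -4.94) and Hist1h4d (-5.23 and -4.83) led. Hist1h3e measured 3137, 2778 and 713 in the controls and Hist1h3f 2001, 2307 and 417, so their spread was wide. With the offsets, their calls (adjusted p = 0.0221 and 0.0183) were kept in 2 and 3 of 6 fits that left out 1 library. The largest rise was Slc22a15, a member of the organic ion transporter family, at 19, 25.7 and 60.8 in the control and 410.3, 2117 and 719.7 in the dko libraries. Its groups were apart although its spread was wide (log2 fold change of 4.91 ± 0.86, adjusted p = 0.00572, and 4.82 ± 0.93, adjusted p = 0.0266 with the offsets). Nr2f1, a nuclear receptor also called COUP-TFI, measured 237, 248 and 208 in the control and 712, 463 and 864 in the dko libraries (log2 fold change of 1.57 ± 0.22, adjusted p = 5.92e-05, and 3.57 ± 0.32, adjusted p = 2.17e-05 with the offsets), and Basp1 measured 379.6, 443 and 271 in the control and 1092, 1011 and 942 in the dko libraries (log2 fold change of 1.48 ± 0.19, adjusted p = 3.44e-05, and 3.10 ± 0.20, adjusted p = 1.82e-07 with the offsets). Hspa1b, Phlda1, Bmyc (1.88 and 3.80), Acyp1 (3.05 and 3.15) and Bex1 (1.66 and 2.98) complete the 8 rises under these conditions.

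Genes that moved against the slope of GC content were few. They were singled out after their values had been seen and are a description. The offsets lower the fold changes of genes of low GC content and raise those of high. The same call with the offsets is thus no further support. Of 3727 tested genes in the 3 deciles of lowest GC content (at most 44.6%), 53 fell, and all 53 fell with the offsets as well. They included 3 histone genes and 5 ribosomal protein genes, with Hist1h1d, Hist1h2bh (-3.68), Hist4h4 (-2.97), Rps27a (-1.93), Rps20 (-1.41), Rps24 (-1.30) and Rpl5 (-1.20) among them. The limit given above for the GC content of Hist1h1d holds here too. Cdh6 (-1.38), the RNA-binding protein Hnrnpa1 (-0.91), the chromatin protein Hmgb1 (-0.96) and Rrm1 (-0.48) were others.

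Of 3726 tested genes in the 3 deciles of highest GC content (at least 52.5%), 80 rose, and all 80 rose with the offsets. They included 14 protein-coding genes of a single exon and 9 pseudogenes. Bmp4 (1.86), Nr2f1 (1.57), Foxd1 (1.50), Six3 (1.24), Cited2 (1.19), Foxc1 (0.94), Hoxa3 (1.14) and Gas1 (0.96) were among them. The feedback inhibitor Spry1 (0.98), the growth factor Igf2 (0.96), the cell cycle inhibitor Cdkn1c (0.59) and the small GTPase Rhob (1.31) belonged to this set too.

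Classes of transcripts had different medians. Of 669 tested genes in the annotation class named TEC, which are unspliced regions with some evidence of expression, 428 rose and 2 fell (median 1.80), and 83 rose with the offsets (median 0.76). Of 77 sense intronic transcripts, 47 rose (median 1.86), and 11 rose and 1 fell with the offsets (median 0.76). Of all genes, 25.0% rose and 27.9% fell, and with the offsets 11.3% rose and 10.4% fell. The median GC content was 40.4% for TEC genes and 39.6% for sense intronic transcripts. The median gene of the first and of the second GC decile stood at 1.52 and 0.94 without the offsets. Whether the counting used strand is not given in the sources used here, so reads of transcripts that overlap another gene cannot be told apart from those of that gene. TEC genes took 0.505, 0.482 and 0.295% of counts in the controls and 1.12, 1.11 and 1.22% in the dko libraries. Of 194 single-exon protein-coding genes that are not listed histones, 61 rose and 29 fell (median 0.37), and with the offsets 67 rose and 8 fell (median 0.68). The 9750 genes with 4 or more exons that encode proteins stood at a median of -0.19 and, with the offsets, -0.06.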

How the data were processed

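The authors sorted GFP-positive cells from trypsin-digested kidneys and made libraries with the NuGen Ovation Solo kit. Ribosomal RNA was removed from the libraries before they were amplified and sequenced as single-end reads. The deposited values are raw counts per gene, which the authors made by trimming with Trimmomatic, mapping to GRCm38 with STAR and counting with featureCounts on GENCODE genes; the submitters' processing notes also name HISAT2, HTSeq and DESeq2. All columns of the count tables were mapped to samples by their titles.

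Counts were tested with edgeR 4.0.16 (R 4.3.3, limma 3.58.1) after filterByExpr (minimum count 10, minimum total 15), with TMM factors, robust quasi-likelihood fits and two-sided tests on the 6 MM libraries, and p-values were adjusted over all 12431 genes tested. In the second fit, each library's log2 CPM relative to the mean of the libraries was fitted by robust regression on natural splines of GC content and log2 length of the longest transcript (4 degrees of freedom each, genes with a mean of at least 10 counts), and the fitted trend entered as offsets. Identifiers of 52489 of 52636 genes were matched to GENCODE M21, which is not the release the authors counted on, and promoters to RefSeq by symbol or a unique synonym. Alternatives were DESeq2 1.42.0, RLE factors, scaling by library size only, TMM computed after leaving out histone, ribosomal protein and mitochondrial genes, no filter, thinning to 1443582 counts, a replicate block, and leaving out each library. The difference between the MM and the UB effect was tested in 1 edgeR fit over all 14 libraries and 15225 genes. The scripts were tested on simulated counts. Tables were written with Python 3.11.15, pandas 2.3.3 and matplotlib 3.10.9.

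The members and the 45 gene lists were chosen with earlier results of these data known. Named genes were Map2k1, the markers, from each list the member of smallest adjusted p that rose and that fell (2 of each for signalling and identity lists), chosen progenitor regulators, the 8 largest rises and falls with offsets that passed in both fits with groups apart and at least 100 normalised counts (no predicted genes, RIKEN clones or pseudogenes), and the 10 genes compared with the UB. Other list members are printed as examples and were chosen after their values were seen. The pattern for small-subunit ribosomal proteins was narrowed by name to leave out S6 kinases. Replicates are single embryos, and the shared title stems of control 1 and 2 and of dko 1 and 2 are not explained. A floor of 3 counts and the p-values cover the spread among these libraries and counting error only. Some genes of the lists are not reported here.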

Additional observations from a re-analysis of the deposited data

Results flagged for a closer look

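The difference between dko and control in the MM was set against that in the UB for 10 genes, and the difference between the effects passed for 5 of them (edgeR interaction term over all 14 libraries). The UB libraries were of E12.5 with the HoxB7Cre-GFP driver and the MM libraries of E13.5 with Six2-TGC, and by the labels UB controls 1, 3 and 4 carried Mek2+/- and all MM controls Mek2+/+. Stage, driver and control genotype cannot be told apart from tissue in these differences. The part of the GC slope of the MM dko libraries was not tested. Map2k2 itself did not pass in the libraries labelled UB dko (adjusted p = 0.487), nor did Map2k1 (0.37, adjusted p = 0.42).

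Spry1 rose in the MM by 0.98 on the log2 scale and stood at -1.42 in the UB, a difference of 2.44 (2.438 before rounding, adjusted p = 0.000443). With the offsets the difference was 3.35 (adjusted p = 0.00215), and leaving out any 1 of the 14 libraries gave 2.29 to 2.54 with the call kept. Dusp6 was at -0.04 in the MM and -1.59 in the UB, a difference of 1.58 (adjusted p = 0.0162; 1.73, adjusted p = 0.000882 with the offsets), and its call was lost without MM dko replicate 3 (adjusted p = 0.062) and with the replicate block (adjusted p = 0.0539).

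Map2k2 was at -3.86 in the MM and -0.70 in the UB, a difference of -3.116 (adjusted p = 0.0338). The call was lost with the offsets (-1.40, adjusted p = 0.0579), with the replicate block (adjusted p = 0.0731) and in 10 of the 14 leave-one-out fits. Pkm fell by 2.52 in the MM against -0.72 in the UB, a difference of -1.766 (adjusted p = 0.037), and Ccnd1 by 0.86 against -1.83, a difference of 0.9979 (adjusted p = 0.0486). Each of these calls was lost in 11 of the 14 leave-one-out fits and with the replicate block (adjusted p = 0.0892 and 0.0885). With the offsets the difference was -0.46 (adjusted p = 0.246) for Pkm and 1.37 (adjusted p = 0.00361) for Ccnd1. The difference of Hist1h1a (-1.60, adjusted p = 0.142) did not pass but did without UB dko replicate 2 (adjusted p = 0.00798), and that of Rpl36 (-5.02, adjusted p = 0.0547) passed without UB dko replicate 2 or 4 (adjusted p down to 0.00535). The difference of Etv5 passed with the offsets only (1.03, adjusted p = 0.0947, then 1.47, adjusted p = 0.0128).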

How the results depend on the processing

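Genes at least 2-fold higher and lower numbered 1960 and 2867, and library size alone gave 1028 higher. With the offsets 2698 genes passed in either direction, 810 were at least 2-fold higher and 725 lower (1535 in all). The replicate numbers do not pair the samples (correlations of same-numbered deviations -0.02, -0.03 and -0.06). A replicate block gave 1882 higher and 2741 lower, and with the offsets 2468 passed, with 765 higher and 675 lower (1440 in all). Leaving out dko 3 with the offsets gave the lowest count, 1689. Leaving out 1 library, with or without the offsets, gave 1689 to 6959 genes in either direction, 636 to 2169 at least 2-fold higher, 520 to 3076 lower and 1156 to 5245 in all. Of 113 named genes, 96 kept their call in every alternative without the offsets. With the offsets 28 lost it, 16 changed sign with a call in at least 1 of the fits, and the other 69 stayed on the same side of the threshold. Dusp6, called in neither fit, also changed sign (-0.04 and 0.22). Of 70 named genes called with the offsets, 48 kept the call in all 6 leave-one-out fits and 22 lost it in at least 1 (Six2, Ddr1, Bmpr2, Id4, Sympk, Incenp, Ccnd3, Tet2, Rpl36al, Tcof1, Ndufv1, Sdhb, Cox4i1, Atp5g2, Fis1, Idh3a, Eya1, Slc22a15, Acyp1, Hist1h3e, Hist1h3f and Etv5). Ddr1 and Ccnd3 lost it in all 6. Tcof1, Cox4i1 and Atp5g2 kept it in 1 fit, and Six2, Tet2, Sdhb, Idh3a, Hist1h3e and Etv5 in 2.

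These 16 genes are given here. In parentheses are the values without the offsets, with them, and with the replicate block and the offsets, and the range when 1 library was left out with or without the offsets. They were Six2 (-0.66, 1.39, 1.37, -1.15 to 1.70), Pax2 (-0.65, 1.51, 1.45, -0.72 to 1.68), Wt1 (-0.18, 0.86, 0.83, -0.28 to 1.04), Cited1 (-1.52, 0.95, 1.03, -1.81 to 1.32), Osr1 (-1.07, 0.62, 0.66, -1.33 to 0.80), Dusp5 (-0.90, 0.67, 0.74, -1.17 to 0.88), Dusp9 (-1.21, 0.49, 0.47, -1.83 to 0.75), Ier2 (-1.68, 0.64, 0.62, -1.91 to 0.87), Etv1 (1.15, -0.030, -0.057, -0.31 to 1.40), Bmp7 (-1.12, 0.15, 0.11, -1.23 to 0.36), H19 (-1.32, 0.073, 0.039, -1.67 to 0.30), Ccne2 (1.61, -0.15, -0.14, -0.24 to 1.72), Kif20b (1.26, -0.027, -0.035, -0.22 to 1.47), Eif5 (0.76, -0.11, -0.10, -0.26 to 0.90), Ndufa4 (0.68, -0.16, -0.10, -0.37 to 0.89) and Snhg14 (2.70, -0.20, -0.20, -0.44 to 2.89). Hoxa6 (-2.25 to 0.10), Elavl4 (-0.088 to 1.81) and Trp53inp1 (-0.061 to 1.45) changed sign only when 1 library was left out with the offsets. The cause of these changes was not tested. The dko libraries, above all dko 2, are shallower than the controls, so low genes are measured least well there.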
